A study of Sus scrofa with 35 samples.

Results

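The suppressors of cytokine signalling, the JAK kinases, the STAT transcription factors and the interleukin 6 receptor subunits were examined in longissimus dorsi, the long back muscle of the pig. Probes were chosen by the gene name printed in the scanner files, in any case, for SOCS1, SOCS2, SOCS3, CISH, STAT3, STAT5B, IL6R, IL6ST, JAK1 and JAK2. A total of 32 of the 60305 probes carried such a name, for 9 of the 11536 genes named on the array. SOCS1 had 0 probes, CISH had 1, IL6ST had 2, SOCS3, STAT5B and JAK2 had 3 each, SOCS2 and IL6R had 4 each, STAT3 had 5 and JAK1 had 7. Of these, 31 passed the filter on dim spots, and the exception was 1 probe of IL6R, which was well above background on 3 of 35 arrays. The list was drawn up knowing that SOCS3 differed between Creole and Large White in these data, so the Creole minus Large White values are given as a description with no test.

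The animals were castrated male pigs of 3 breeds, Creole, a local Caribbean breed, Large White, a breed selected for growth, and F1, the cross of both. They were raised at the same station in Guadeloupe, kept in a thermoneutral room (TN, labelled 24 °C) or slaughtered after 4 or 5 days in the warmed room (HS, heat stress, labelled 30 °C, while the description of the rearing states 32 °C). Each array held the labelled RNA of 1 animal, with 6 arrays in each of Creole TN, Creole HS, F1 TN, Large White TN and Large White HS and 5 in F1 HS. TN animals were slaughtered before the warming and HS animals after it, so day of slaughter and age cannot be told apart from temperature. By the study's design each breed came as 3 blocks of 4 littermates, spread over both temperatures, and the labels do not name them. Breed and litter are therefore not separate, and the SEs of breed differences count littermates as independent animals.

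As background, cytokines such as interleukin 6 and hormones such as growth hormone bind receptors that carry JAK kinases. The kinases phosphorylate STAT proteins, which enter the nucleus and switch on target genes, among them SOCS and CISH, whose products then block the receptor or the kinase. SOCS3 acts mainly on receptors that signal through gp130, the protein of IL6ST, and CISH and SOCS2 mainly on receptors that signal through STAT5, including that of growth hormone. In muscle these routes take part in the response to injury, exercise and inflammation.

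The probes are single strands of 60 bases. Those of SOCS3 are shown because all statements on that gene rest on them, the first 30 bases being given for the first 2 and the whole probe for the third.
A_72_P367438: gttaggagatgcttgaaaaactcaacgaaa
O9277: aatgtttacaatctgcctcaatcactctgt
A_72_P185956: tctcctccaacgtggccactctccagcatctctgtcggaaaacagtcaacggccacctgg
The longest run of bases that any pair of these whole probes had in common was 8, counted on either strand, so the 3 read different stretches. The probes of IL6R are shown because those of 1 sequence stood on the array under several names, and the capitals mark the 45 bases that they share with the probe that was left out.
A_72_P035481 and O7846: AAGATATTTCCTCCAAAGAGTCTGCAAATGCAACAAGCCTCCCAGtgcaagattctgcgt
A_72_P705280: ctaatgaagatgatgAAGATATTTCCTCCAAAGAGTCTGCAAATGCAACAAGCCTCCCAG
The JAK2 probes A_72_P445068 and A_72_P232722 overlapped by the 24 bases GCCATAAAAAATACTGTTTTTCAC, the first bases of the former and the last of the latter. The probes of STAT5B and IL6ST that passed the temperature test are shown in whole.
STAT5B A_72_P033581: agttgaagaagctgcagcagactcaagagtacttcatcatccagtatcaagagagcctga
IL6ST A_72_P441793: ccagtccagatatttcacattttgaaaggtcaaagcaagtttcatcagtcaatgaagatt
The longest run that a STAT5B probe shared with any of the 4 probes of STAT5A, its close relative, was 9 bases.

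Values are log2 of the quantile-normalized spot intensity, and a difference of 1 is a doubling. Levels of different probes are not comparable. Between 58.4% and 75.9% of the probes on an array were well above background and 0 spots were saturated. All 8 skeletal muscle fibre markers were above background on every array. Markers of other cell types were present too: the mean over 13 leukocyte markers ran from 7.42 to 9.87 on TN arrays and from 8.63 to 10.14 on HS arrays.

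SOCS3 had the widest spread among these genes. Its brightest probe, A_72_P367438, ran from 7.82 to 12.58 over the 35 arrays, a range of 4.75 on the log2 scale. In Creole TN the lowest, median and highest values were 7.90, 8.47 and 10.52. In Creole HS they were 9.27, 9.44 and 10.39.
The 2 Creole groups therefore lay in the lower part of the range, with Creole HS the tightest of the 6 groups.
In F1 TN the lowest, median and highest values were 9.0, 9.73 and 11.62, and the 5 arrays of F1 HS stood at 7.82, 8.01, 8.95, 9.55 and 11.55. In Large White TN the values were 8.85, 10.74 and 12.58, and in Large White HS 9.62, 11.20 and 12.01.
In order of their means the groups were Large White HS (11.01 ± 0.89, SD, n = 6), Large White TN (10.79 ± 1.43), F1 TN (10.07 ± 1.09), Creole HS (9.64 ± 0.44), F1 HS (9.18 ± 1.5) and Creole TN (8.78 ± 0.99). No neighbours in this order were farther apart than the pooled SD within groups, 1.1.

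**Figure D1:**
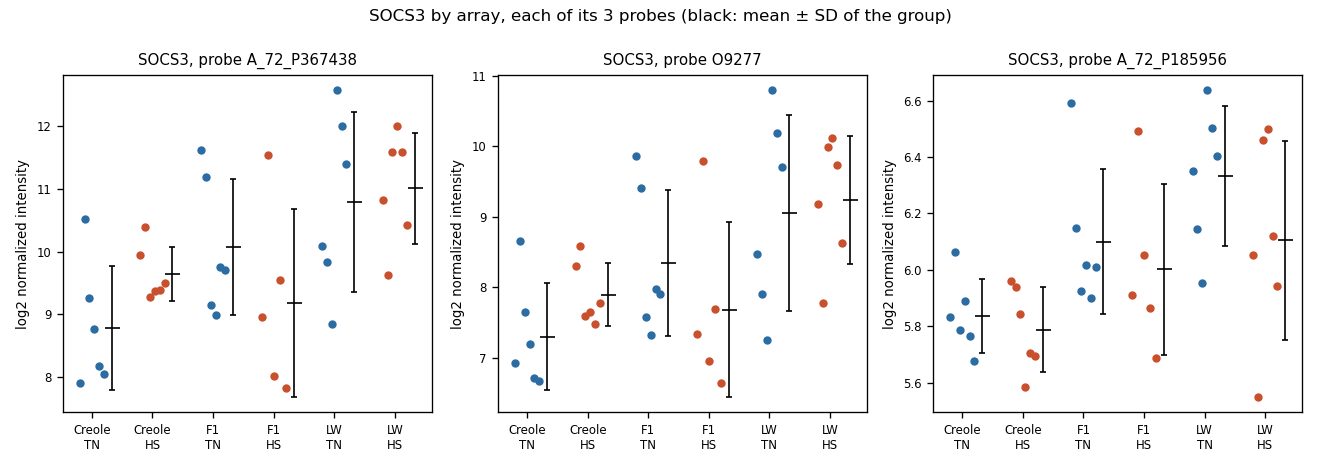
Log2 normalized intensity of SOCS3 (y axis) on each array (points) in the 6 groups (x axis, LW for Large White), with 1 panel for each probe and the mean ± SD of each group in black. With A_72_P367438 the Large White arrays lie between 8.85 and 12.58 and the Creole arrays between 7.90 and 10.52, and the y axis of A_72_P185956 covers a far smaller range.

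Each of the 3 probes placed SOCS3 lower in Creole than in Large White. With A_72_P367438 the Creole arrays averaged 9.21 ± 0.86 (SD, n = 12), the F1 arrays 9.66 ± 1.31 (SD, n = 11) and the Large White arrays 10.90 ± 1.14 (SD, n = 12). The Creole minus Large White difference was -1.69 (SE 0.44), a 3.23-fold lower intensity, and all 12 Creole arrays were below the Large White mean. The breeds overlapped: 4 of 12 Creole arrays were below the lowest Large White array.
O9277 gave -1.55 (SE 0.39), with means of 7.60 ± 0.67 in Creole and 9.14 ± 1.12 in Large White. A_72_P185956 gave -0.41 (SE 0.10), with means of 5.81 ± 0.14 and 6.22 ± 0.31. The first 2 probes moved almost as 1 over the 35 arrays (r = 0.99), and the third, the dimmest, followed them with r = 0.80 and r = 0.84.

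The difference was present at both temperatures and on every slide. It was -2.01 (SE 0.60) between TN arrays and -1.37 (SE 0.60) between HS arrays with A_72_P367438. Within the 5 slides, which held 1 to 3 Creole and 2 or 3 Large White arrays each, it was -1.0, -0.87, -2.09, -2.57 and -2.20. Leaving out any 1 array gave -1.88 to -1.53. These splits re-use the arrays in which the SOCS3 difference was first seen, so they describe it and are no separate support.
Markers of some cell types differed with breed as well. In Creole minus Large White the mean over 6 connective tissue markers differed by -0.35 (SE 0.09) and that over 5 endothelial markers by -0.32 (SE 0.07). That over 8 muscle fibre markers differed by -0.05 (SE 0.02). Less clear against their SEs were the means over 13 leukocyte markers (-0.24, SE 0.23), 6 adipocyte markers (-0.17, SE 0.13) and 3 blood cell markers (-0.16, SE 0.11). With the leukocyte mean in the model the SOCS3 difference was -1.44 (SE 0.38), and the part of the other lists in it was not tested. In bulk muscle, fewer cells of a type and less RNA in each cell cannot be told apart.

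Averaged over both temperatures, F1 pigs stood between the parental breeds for SOCS3, and no probe separated them from either. The F1 minus Large White difference with A_72_P367438 was -1.23 (SE 0.45, limma adjusted p = 0.26), with 8 of 11 F1 arrays below the Large White mean, and that with O9277 was -1.10 (SE 0.40, adjusted p = 0.26). The F1 minus Creole difference with A_72_P367438 was 0.46 (SE 0.45, adjusted p = 0.895), and its sign turned with temperature, from 1.29 (SE 0.60, adjusted p = 0.472) in TN to -0.47 (SE 0.63, adjusted p = 0.9995) in HS. O9277 turned likewise, from 1.04 to -0.21, while A_72_P185956 gave 0.26 and 0.21. Against the midpoint of both parents it was -0.39 (SE 0.39, adjusted p = 0.925).
The spread within F1 was wide: F1 HS held arrays at 7.82 and at 11.55.

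Temperature left no detectable difference in SOCS3. With A_72_P367438 TN arrays averaged 9.88 ± 1.41 (SD, n = 18) and HS arrays 9.99 ± 1.23 (SD, n = 17), a difference of 0.09 (SE 0.36, adjusted p = 0.896). O9277 gave 0.06 (SE 0.32, adjusted p = 0.921) and A_72_P185956 -0.13 (SE 0.08, adjusted p = 0.309). Within breeds the values with A_72_P367438 were 0.86 (SE 0.60) in Creole, -0.89 (SE 0.63) in F1 and 0.22 (SE 0.60) in Large White, and the breed by temperature interaction had an unadjusted p of 0.143 and an adjusted p of 0.963. The sign of the overall value was not fixed: it was -0.22 with the brightness of the array in the model and -0.53 with the leukocyte mean, neither past the threshold.

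Among the other feedback inhibitors, SOCS2, which damps growth hormone signalling, had its highest mean in Large White with each of its 4 probes. With the brightest, A_72_P203472, the lowest, median and highest values were 8.03, 8.76 and 9.33 in Large White, 7.43, 8.58 and 9.22 in Creole, and 7.94, 8.15 and 9.23 in F1. The breeds overlapped over most of their range. The F1 minus Large White difference was -0.44 (SE 0.17, adjusted p = 0.298), 9 of 11 F1 arrays were below the Large White mean, and the other 3 probes gave -0.36, -0.29 and -0.31 with adjusted p between 0.269 and 0.36. The Creole minus Large White difference was -0.26 (SE 0.16) and the temperature difference -0.13 (SE 0.14, adjusted p = 0.565).

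CISH, the feedback inhibitor of STAT5 signalling, differed from SOCS2 in its order of groups. Its only probe, O8335, stood at 6.62, 6.64, 7.05, 7.10 and 7.14 on the 5 F1 HS arrays, against 7.06 to 7.86 in F1 TN, so that 3 of the 5 lay below the lowest F1 TN array. In Large White the order was the other way round, with a range of 6.88 to 7.59 in TN and 6.98 to 8.88 in HS. In Creole both groups covered almost the same range, from 6.93 to 8.60 in TN and from 6.92 to 8.66 in HS.
The HS minus TN difference was -0.68 (SE 0.32, adjusted p = 0.564) within F1, 0.50 (SE 0.30, adjusted p = 0.4) within Large White and 0.08 (SE 0.30, adjusted p = 0.906) within Creole. The interaction of breed and temperature had an unadjusted p of 0.0344 and an adjusted p of 0.963 in limma, so it did not pass over all probes. Over all breeds the temperature difference was -0.01 (SE 0.19, adjusted p = 0.977), and its sign turned in 16 of the 35 fits that left out 1 array.

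**Figure D2:**
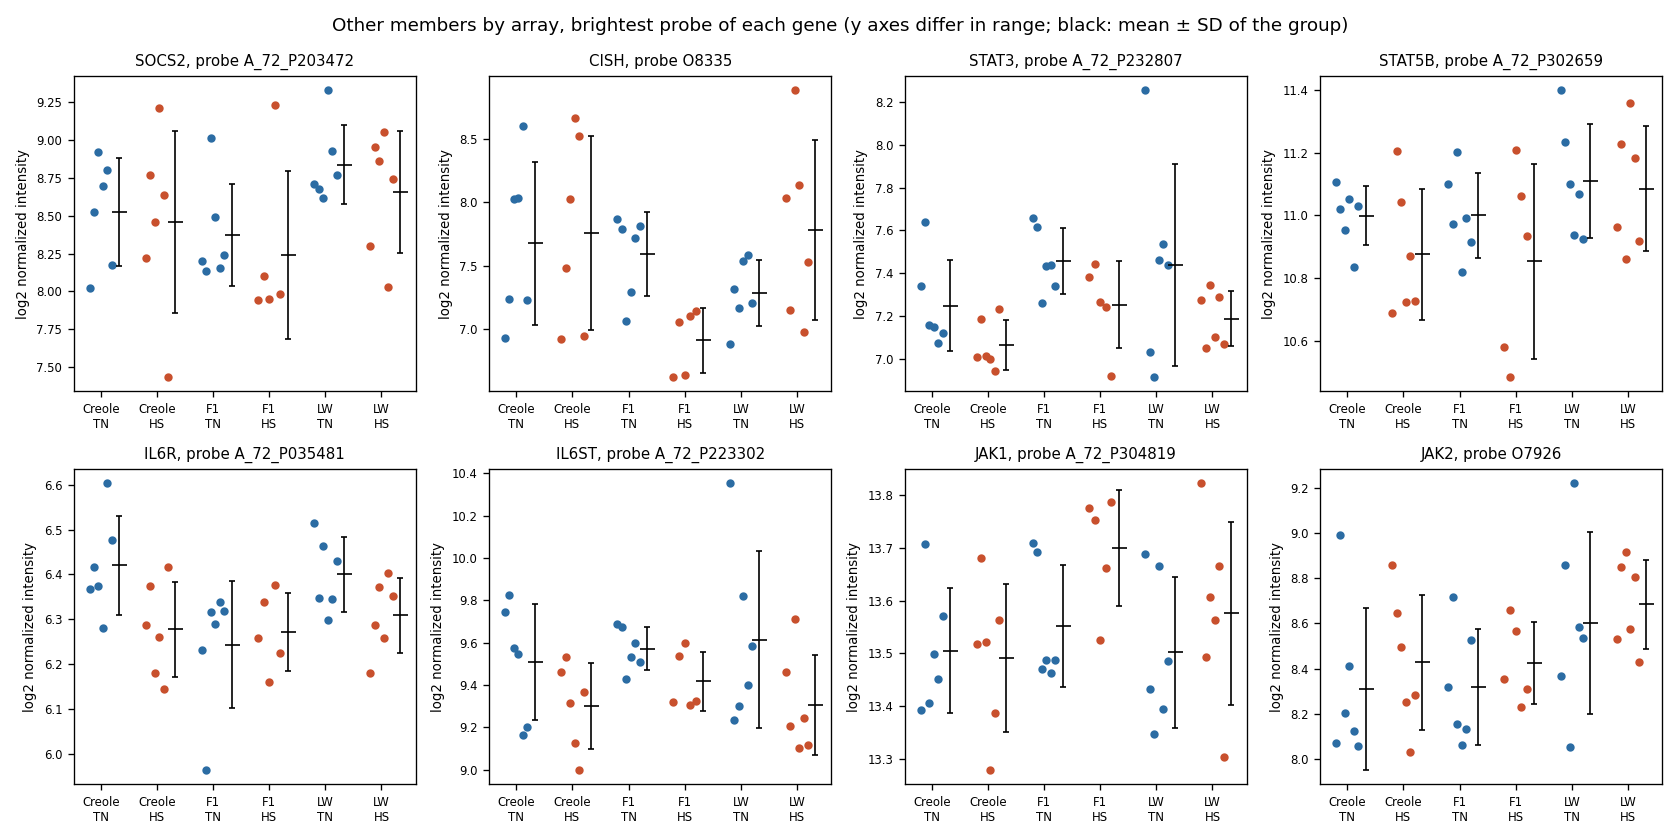
Log2 normalized intensity (y axes, which differ in range) of the brightest probe of the 8 other genes on each array (points, blue for TN and red for HS) in the 6 groups (x axis, LW for Large White), with the mean ± SD of each group in black. CISH is lowest in F1 HS, at 6.62 to 7.14, and JAK1 covers a range of 0.54 over all arrays.

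Of the kinases, JAK2, which the receptors of growth hormone and interleukin 6 use, gave unlike pictures by probe. The brightest, O7926, and A_72_P232722 moved together over the 35 arrays (r = 0.92). A_72_P445068 followed them only weakly (r = 0.41 and r = 0.31), although it overlaps the latter by 24 bases.
With A_72_P445068 the lowest, median and highest values were 6.47, 6.85 and 7.39 in Creole, 7.02, 7.20 and 7.70 in F1, and 6.98, 7.37 and 7.66 in Large White. All 11 F1 arrays stood above the Creole mean, and 8 of 12 Creole arrays were below the lowest Large White array. The F1 minus Creole difference was 0.44 (SE 0.11, adjusted p = 0.0458), the only one of the 31 member probes that passed, where 0.477% of all probes did and 0.301% were higher. The call was narrow, since it was lost in 23 of the 35 fits that left out 1 array and the value then ran from 0.40 to 0.49. Creole minus Large White was -0.47 (SE 0.10) and F1 minus Large White -0.03 (SE 0.11, adjusted p = 0.945).
With O7926 the mean was 8.37 ± 0.32 in Creole, 8.37 ± 0.22 in F1 and 8.64 ± 0.30 in Large White. The F1 minus Creole difference was then 0.0026 (SE 0.12, adjusted p = 0.9998) and F1 minus Large White -0.27 (SE 0.12, adjusted p = 0.386), so this probe placed F1 with Creole where A_72_P445068 placed it with Large White. The difference between the probes was not tested.

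JAK1, the other kinase of the interleukin 6 receptor, had the smallest spread within groups after IL6R by brightest probe. Its brightest probe, A_72_P304819, ran from 13.28 to 13.82 over all 35 arrays, with a pooled SD within groups of 0.14, and 7.78% of all kept probes had a smaller one. The temperature difference was 0.07 (SE 0.05, adjusted p = 0.37), and the 6 other probes gave between -0.0042 and 0.08. Creole minus Large White was -0.04 (SE 0.06) with this probe and between 0.01 and 0.08 with the 6 others. The dimmest JAK1 probe, A_72_P097831, had a pooled SD within groups of 0.24, and 55.6% of all kept probes had a smaller one.

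Of the receptor subunits, IL6ST, which encodes gp130, the signalling chain shared by interleukin 6 and its relatives, was lower in HS by the dimmer of its 2 probes, and the other narrowly missed the threshold. With A_72_P441793 the lowest, median and highest values were 7.14, 7.43 and 7.80 in TN and 7.07, 7.25 and 7.63 in HS. The ranges overlapped, but 16 of 17 HS arrays were below the TN mean of their breed. The difference was -0.15 (SE 0.05, adjusted p = 0.0488), and it was -0.15 in Creole, -0.17 in F1 and -0.13 in Large White. The brighter probe, A_72_P223302, gave -0.23 (SE 0.08, adjusted p = 0.056), the TN arrays averaging 9.57 ± 0.28 (SD, n = 18) and the HS arrays 9.34 ± 0.20 (SD, n = 17), with 14 of 17 HS arrays lower.
IL6R, the chain that binds interleukin 6 itself, covered a narrow range with its brightest probe. Its kept probes were dim, averaging between 6.02 and 6.32, so a narrow range says little about how steady the gene was. The dimmest kept one, A_72_P474892, had a pooled SD within groups of 0.26. A_72_P035481 ran from 5.96 to 6.60, and O7846, of identical sequence, followed it with r = 0.15 over the 35 arrays. Another copy of that sequence, under a name of no member, followed them with r = 0.35 and r = 0.41. The probes of SOCS2, JAK1, JAK2 and STAT5B that have a copy of the same sequence elsewhere on the array followed that copy with r = 0.89, r = 0.90, r = 0.95 and r = 0.94.

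Of the STAT genes, which carry the signal to the nucleus, 1 probe of STAT5B passed the temperature test and none of STAT3 did. STAT3, the main STAT of interleukin 6, stood at 6.91, 7.39 and 8.25 (lowest, median and highest of A_72_P232807) in TN and at 6.92, 7.19 and 7.45 in HS. All 17 HS arrays were below the TN mean of their breed, yet the difference was -0.21 (SE 0.08, adjusted p = 0.0626), and the 4 other probes gave between -0.15 and -0.03. The highest TN value came from the Large White array that also had the highest IL6ST value, 10.35 with A_72_P223302.
STAT5B, used by growth hormone, stood at 6.76, 6.98 and 7.55 with A_72_P033581 in TN and at 6.40, 6.77 and 7.28 in HS, with 13 of 17 HS arrays below the TN mean of their breed. The difference was -0.20 (SE 0.07, adjusted p = 0.0484). The other 2 probes gave -0.10 (adjusted p = 0.324) and -0.11 (adjusted p = 0.314). With O10297 the temperature difference was -0.35 (SE 0.11, adjusted p = 0.078) in Creole, 0.08 (SE 0.12, adjusted p = 0.935) in F1 and -0.03 (SE 0.11) in Large White, with an interaction at an unadjusted p of 0.0311 and an adjusted p of 0.963.

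Counted together, 2 of the 31 member probes passed the temperature test and both fell, A_72_P441793 of IL6ST and A_72_P033581 of STAT5B, where 16% of all probes passed and 8.3% fell. Another 2 had an unadjusted p under 0.05, the brighter IL6ST probe and the brightest STAT3 probe, making 4 of 31, where 30.7% of all probes had one. The median difference of the member probes was -0.03, beside -0.02 over all probes. Both calls sat next to the threshold: leaving out 1 array gave between 0 and 4 calls, IL6ST keeping its call in 10 of 35 fits and STAT5B in 11. Neither passed with median or spike-in scaling, nor with array brightness in the model. Before scaling the HS arrays were brighter, so brightness ran with temperature. The 75th percentile of log2 intensity averaged 9.24 ± 0.24 (SD, n = 17) in HS and 9.05 ± 0.17 (SD, n = 18) in TN. Within breeds 0 member probes passed in limma, where 1.91%, 0.00482% and 0.00482% of all probes passed in Creole, F1 and Large White. At an unadjusted p under 0.05 there were 3, 1 and 1 member probes of 31, where 21.5%, 8.3% and 16.6% of all probes were. In the interaction 0 passed, as did 0% of all probes, and 2 had an unadjusted p under 0.05, where 3.84% of all probes did.
Between breeds, 0 member probes passed in F1 minus Large White, where 0.525% of all probes passed. An unadjusted p under 0.05 was found for 10 of the 31, where 10.5% of all probes had one. Of these 10, all were lower in F1: the 4 of SOCS2, 2 each of SOCS3, STAT5B and JAK2. Probes of 1 gene repeat each other, so the 10 are not separate results. The contrast also uses the same Large White arrays as Creole minus Large White, by which SOCS3 was known. The count is therefore a description and not an independent test. Against the parental midpoint 0 passed, where 0.246% of all probes passed, and 4 had an unadjusted p under 0.05, where 7.35% of all probes did. In Creole minus Large White, 4 probes were past the threshold, the 3 of SOCS3 and A_72_P445068 of JAK2, all lower in Creole, where 3.64% of all probes were and 1.92% were lower. That contrast was known when the list was drawn up, so this count describes the choice and tests nothing.

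**Figure D3:**
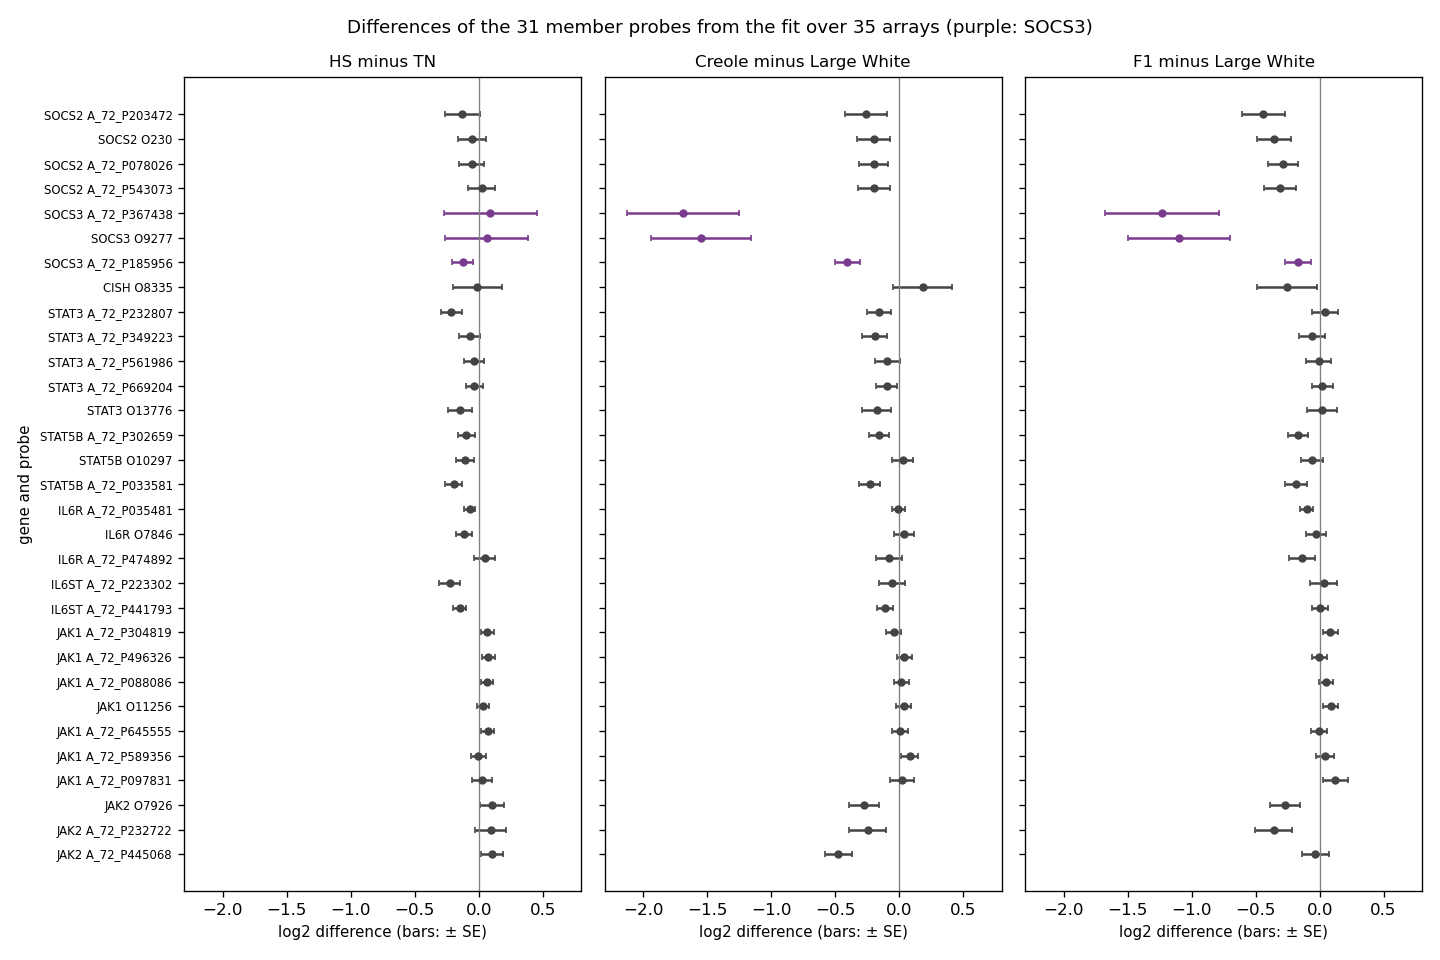
Log2 difference (x axes, bars ± SE) of the 31 member probes (y axis, by gene and probe) for HS minus TN, Creole minus Large White and F1 minus Large White from 1 fit over 35 arrays. The brighter SOCS3 probes (purple) lie at -1.69 and -1.55 in Creole minus Large White and close to 0 in HS minus TN, where the other probes lie between -0.23 and 0.10.

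Other genes of the pathway were taken from a list of 66 ligands, receptors, kinases, STATs, inhibitors, phosphatases and target genes, each by its brightest kept probe. Of the 48 with such a probe, 5 rose in HS and 6 fell, where 18.2% of all genes passed, 8.45% rising and 9.73% falling, and the median was -0.01 beside -0.02 over all genes. The 3 largest rises were those of PTPN6, JAK3 and IL10. PTPN6, a phosphatase of blood cells, rose by 0.92 (SE 0.26, adjusted p = 0.0156), from 11.05 ± 0.90 (SD, n = 18) to 11.96 ± 0.66 (SD, n = 17). JAK3, the kinase of lymphocyte cytokine receptors, rose by 0.90 (SE 0.24, adjusted p = 0.0105), with 16 of 17 HS arrays above the TN mean of their breed, although 1 of its 3 other probes had the opposite sign. IL10, an anti-inflammatory cytokine, rose by 0.85 (SE 0.14, adjusted p = 0.000234), with 17 of 17 HS arrays higher and both other probes called in the same direction.
STAT2, of the interferon route, rose by 0.22 and PIAS1, a SUMO ligase, by 0.14. The genes that fell were CEBPB, a transcription factor of the acute phase (-0.32), TYK2, a JAK kinase (-0.27), PIM1, a kinase induced by STATs (-0.27), SOCS5 (-0.20), PIAS2 (-0.17) and IFNG, interferon gamma (-0.15). For TYK2, 2 of the 4 other probes had the opposite sign and 1 of them was called. For SOCS5, 2 of the 3 other probes had the opposite sign and 0 were called. The only kept IFNG probe was dim, averaging 5.99 in TN and 5.84 in HS, so its small fall is less sure.
Markers of several cell types moved with temperature too. Of 13 leukocyte markers, 11 were higher in HS and 4 passed, 11 were above background on every array, and their mean differed by 0.60 (SE 0.19). The mean over 6 connective tissue markers differed by 0.19 (SE 0.08) and that over 6 adipocyte markers by 0.09 (SE 0.11). Lower in HS were the means over 3 blood cell markers (-0.35, SE 0.09), 5 endothelial markers (-0.18, SE 0.06) and 8 muscle fibre markers (-0.07, SE 0.02). The part of these other lists was not tested. With the leukocyte mean in the model 3 of the 48 genes passed, in place of 11, and with array brightness in the model fewer still. The share of all genes that passed in these models was not counted, so the drop is not shown to be particular to the pathway. Of the 48, 0 passed in F1 minus Large White, where 0.305% of all genes did, and 0 in F1 minus Creole, where 0.368% did, the smallest adjusted p being 0.205 and 0.148.

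The members were also set against SOCS3 from array to array, with the mean of each group removed, so that neither breed nor temperature enters. The pooled SD within groups of A_72_P367438, 1.1, exceeded that of 99.5% of all kept probes, whose median was 0.23. That of CISH, 0.55, exceeded 94.6%, and that of SOCS2, 0.43, exceeded 89.4%, while that of IL6R, 0.10, exceeded 1.35%.
Each of the 8 genes entered by its brightest probe alone, and its other probes were not set against SOCS3. The share of all kept probes that reach a given r with SOCS3 was not counted. A correlation that passes is therefore not shown to be particular to these genes. Other JAK1 probes followed the brightest with r from 0.07 to 0.78, and those of JAK2 with r = 0.92 and r = 0.41. Of the 8 genes, JAK2 (O7926) had the highest Pearson correlation with SOCS3, r = 0.58 (n = 35, permutation p = 0.00072, adjusted over 8 pairs 0.00576) and Spearman rho = 0.52 (p = 0.00302, adjusted 0.0121). Without the 2 arrays farthest from the median of SOCS3 r was 0.51, and within the 4 slides of 8 arrays it ran from 0.16 to 0.76. JAK1 had r = 0.47 (permutation p = 0.00632, adjusted 0.0253) and rho = 0.47 (p = 0.00821, adjusted 0.0219), 0.45 without those 2 arrays and 0.22 to 0.77 within slides.
STAT3 had r = 0.48 (permutation p = 0.0194, adjusted 0.0516) and rho = 0.64 (p = 0.00031, adjusted 0.00248), 0.49 without the 2 arrays, and -0.08 to 0.78 within slides, so that 1 of the 4 slides gave no positive value. The rank correlation passed and the linear one did not.
The remaining 5 pairs did not pass: IL6ST r = 0.32 (permutation p = 0.117, adjusted 0.233), CISH 0.20, SOCS2 0.13, IL6R -0.13 and STAT5B -0.25, the last 4 with adjusted p between 0.286 and 0.473. SOCS3 and SOCS2, of the same family, thus had no relation that passed at this number of arrays.

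**Figure D4:**
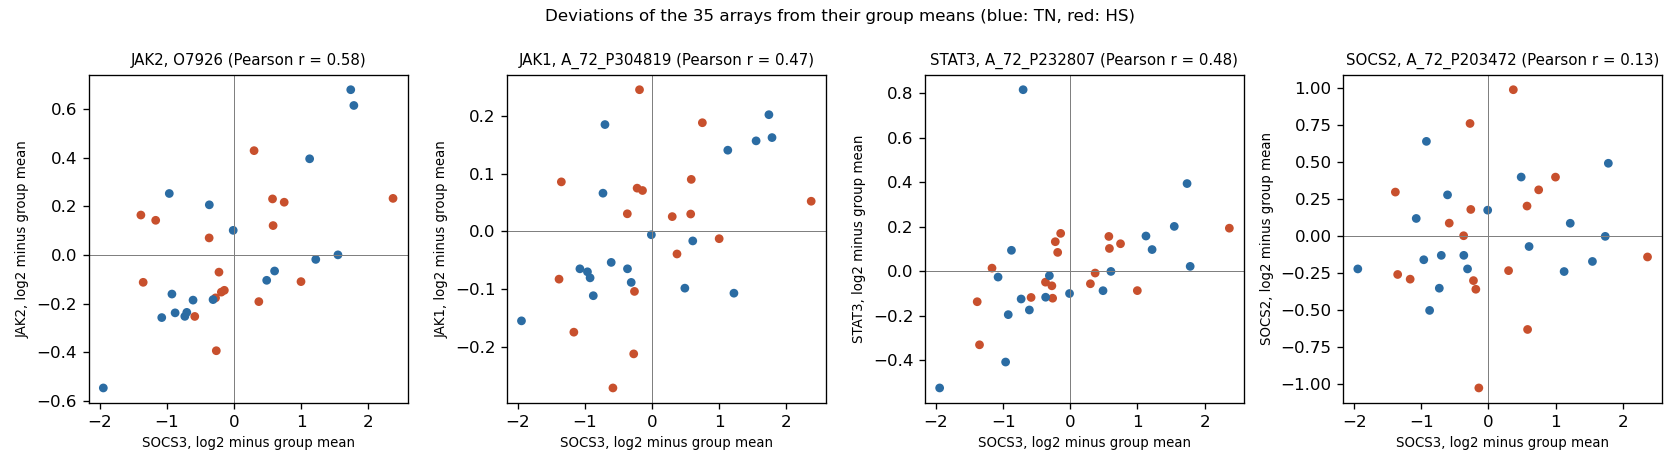
Deviation of SOCS3 (probe A_72_P367438, x axes) and of JAK2, JAK1, STAT3 and SOCS2 (y axes) from the mean of their group, in log2 units, on the 35 arrays (points, blue for TN and red for HS). Pearson r is 0.58 for JAK2, 0.47 for JAK1, 0.48 for STAT3 and 0.13 for SOCS2.

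The genes whose levels were most like those of SOCS3 over the 35 arrays were ranked by Pearson r with A_72_P367438 among 9355 genes, as a description. They were BCL3, a partner of NF-kappaB (r = 0.90), PLAU, the urokinase that activates plasminogen (0.88), EGR1, an immediate early transcription factor (0.87), NAB2, which represses EGR1 (0.86), and GFPT2, an enzyme of hexosamine synthesis (0.86). The points share arrays, scaling and breed. With the group means removed r was 0.84 to 0.89, which is largely fixed by choosing the genes for high r over the same arrays. All 5 were lower in Creole than in Large White, by -0.73, -0.78, -0.71, -0.31 and -0.60, a direction largely fixed by choosing them for likeness to SOCS3 over all arrays. None differed with temperature, with adjusted p between 0.642 and 0.928 in limma, which choosing them for likeness to SOCS3 also favours.
IL6 came next, at r = 0.85, and is named after its values were seen. The dimmer of its kept probes, A_72_P177826, gave this r. It was well above background on 13 of 35 arrays, with means of 5.35 in Creole, 5.48 in F1 and 6.02 in Large White, so its low values have no firm order. The brighter, O101, was well above background on 17 of 35 arrays, with means of 5.42 in Creole and 6.16 in Large White.

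**Figure D5:**
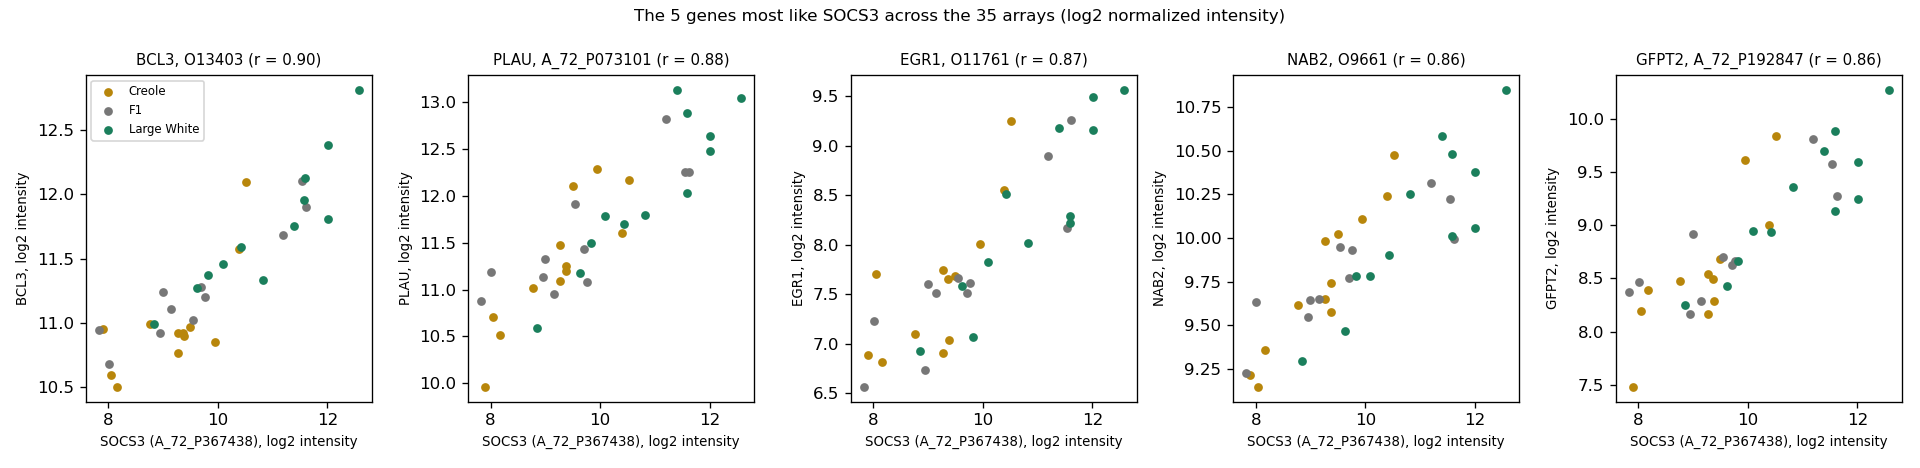
Log2 normalized intensity of SOCS3 (probe A_72_P367438, x axes) and of the 5 genes most like it (y axes) on the 35 arrays, coloured by breed. Pearson r runs from 0.86 to 0.90, and the highest SOCS3 values belong to Large White arrays (green) while no Creole array (ochre) is above 10.52.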

How the data were processed

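Muscle RNA of 35 pigs was labelled with 1 dye and hybridised to Agilent pig arrays of 60-base probes, 8 arrays to a slide on 5 slides, the last incompletely used. The deposited scanner files hold each spot's intensity as the authors extracted it with Feature Extraction 10.10.1.1, and the deposited value table holds the authors' normalized log2 values, used here as an alternative. Median spot intensities were quantile-normalized without background subtraction and log2-transformed. Outlier-flagged spots (105 over all arrays, 0 of them of the genes described) were dropped and repeated probes averaged. Probes well above background on 75% of the arrays of at least 1 group were kept, 41517 of 60305. Breed and temperature were fitted additively with limma 3.58.1 in R 4.3.3 over all arrays, 1 mean per group was fitted for within-breed and interaction tests, and p-values were adjusted by Benjamini-Hochberg over all kept probes at 0.05. Array number limits the precision. The study's random terms (pen, slaughter day, sire, dam) could not be fitted because no label gives them, so arrays count as independent. Shared litters may make p-values between breeds too small and those for temperature, which litters span, too large. Pens and slaughter days, which lie within 1 temperature, may make temperature p-values too small. Genes and lists were chosen with earlier results of these data known. Described were every probe of the members, of the pathway list each gene that passed (at most 10 rises and 10 falls for temperature, 5 each for F1), and the 5 genes most like SOCS3. Within-group correlations were tested by permutation within groups (100000 resamples, two-sided). The fits were tested on simulated data. Alternatives were another signal and scaling, background correction, no filter, slide block, array weights, brightness or leukocyte covariates, single temperatures, names by accession, other probes and each array left out. Matching by accession in RefSeq (Sscrofa11.1) named 21 of the 32 probes and added 0. The files give no genome build, so positions are not given.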

Additional observations from a re-analysis of the deposited data

Results flagged for a closer look

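Each group of 5 or 6 arrays was searched for a lone high or low value in the brightest probe of each gene and in every SOCS3 probe. Of 66 combinations of probe and group, 3 held a value farther from its neighbour than Dixon's 95% critical value allows, where chance gives about 1 in 20, or 3.3. SOCS2 (A_72_P203472) was 9.23 on F1 HS replicate 4 against 8.10 for the next array, a gap of 0.876 of the group's range. IL6R (A_72_P035481) was 5.96 on F1 TN replicate 2 against 6.23 for the next, a gap of 0.714 of the range. SOCS3 (A_72_P185956) was 6.59 on F1 TN replicate 1 against 6.15, a gap of 0.641 of the range.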

How the results depend on the processing

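The SOCS3 differences between Creole and Large White kept their sign under every alternative run, from -2.01 to -1.37 with A_72_P367438. They were known when the list was drawn up, so this is a description and no separate support. The calls at the threshold did not last. For temperature, 0 member probes passed, in place of 2, with normexp background correction, median scaling, spike-in scaling, no filter, array brightness as a covariate or temperature alone in the model, and 1 passed with array weights or the leukocyte mean as a covariate. For F1 minus Creole, 0 passed, in place of 1, with 75th percentile scaling, median scaling, spike-in scaling, no filter, slide as a block, array weights, 1 mean per group, TN arrays alone or HS arrays alone. For Creole minus Large White, 0 were past the threshold with TN arrays alone or HS arrays alone and 2 with names by accession, in place of 4, a count that describes the choice of the list and tests nothing. Of the pathway list, the number of genes that passed for temperature went from 11 to 7 with spike-in scaling, to 3 when the model held the leukocyte mean and to 2 when it held array brightness. Leaving out 1 array gave 0 to 4 member probes for temperature, 0 to 1 for F1 minus Creole, 0 to 1 for temperature within Creole and 8 to 14 pathway genes.

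Signs turned in values close to 0. The temperature difference of CISH, -0.01, became 0.0057 with normexp, 0.0273 with median scaling, 0.1046 with spike-in scaling, 0.0865 with array brightness and 0.0024 with temperature alone, and ran from -0.0985 to 0.0457 with 1 array left out. That of SOCS3 became -0.2192 (A_72_P367438) and -0.181 (O9277) when the model held array brightness, -0.5286 and -0.4683 when it held the leukocyte mean, and -0.1256 by A_72_P185956, and ran from -0.0387 to 0.2271 and from -0.0595 to 0.1717 with 1 array left out, below 0 without F1 HS replicate 2 or Large White TN replicate 3 and, for O9277, without Large White TN replicate 2. With spike-in scaling SOCS2 was 0.0162 and STAT5B (A_72_P302659) 0.0526. With 75th percentile scaling JAK1 was -0.0027, and with the leukocyte mean JAK2 (O7926) was -0.0373. Other probes gave 0.0229 for SOCS2 (A_72_P543073), 0.0477 for IL6R (A_72_P474892) and -0.0042 for JAK1 (A_72_P589356). For F1 minus Large White, CISH was 0.3077 with TN arrays alone and JAK2 (A_72_P445068) ran from -0.0778 to 0.0034 with 1 array left out. For F1 minus Creole with HS arrays alone, SOCS3 was -0.4657 (A_72_P367438) and -0.2129 (O9277). The correlation of SOCS3 with STAT3 passed with median scaling (0.513), with SOCS3 probe A_72_P185956 (0.5042) and with O9277 (0.5053), and that with IL6ST passed with A_72_P185956 (0.4563). The cause of these changes was not tested. No paired analysis was possible because the labels do not name the litters, which span both temperatures. The replicate numbers used here follow the order of the samples. Of the probes named, A_72_P705280 of IL6R was well above background on 3 of 35 arrays, A_72_P177826 of IL6 on 13, O101 of IL6 on 17 and SOCS2 A_72_P543073 on 31. Those on 34 were SOCS3 A_72_P185956, IL6R O7846 and A_72_P474892, and the probes of IL10 and IFNG.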
